A study of Sus scrofa with 12 samples.

Results

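The genes described here encode Mediator, Integrator and the factors that pause RNA polymerase II and release it into elongation. They were chosen by name, as the genes of a count table whose symbol begins with MED, INTS or SUPT followed by a digit or begins with NELF, or is ELL, ELL2, ELL3, CDK7, CDK8, CDK9, CDK19, CCNC, CCNH, CCNT1, CCNT2 or MNAT1. The names picked 65 genes among the 29329 of the table, 32 of them of Mediator, 14 of Integrator and 19 of other kinds, and the rule itself uses no measured value, though the set was proposed with earlier results of these data known. All 65 passed the filter on low counts, which left 17995 genes to be tested. MED29, INTS4, INTS10 and NELFB belong to the same complexes and were not analysed here.

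Mediator is a large complex that connects transcription factors bound at enhancers with RNA polymerase II at promoters. Its head and middle modules touch the polymerase, its tail module meets the activators, and a kinase module that comes and goes carries CDK8 or CDK19 with cyclin C, MED12 and MED13. Once the kinase of TFIIH (CDK7 with cyclin H and MNAT1) has marked the tail of the polymerase, DSIF and NELF hold it a short way into the gene, and P-TEFb, which is CDK9 with a T-type cyclin, releases it. ELL proteins then speed elongation, while Integrator holds an endonuclease that cuts nascent RNA, both at small nuclear RNA genes and at paused polymerases. An early embryo lives at first on RNA made in the oocyte, and its own genome is switched on during the first cleavages, when this machinery is needed to make new transcripts.

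Pig embryos were made by in vitro fertilisation and their RNA was read by SMART-seq, which copies polyadenylated RNA of few cells into full-length cDNA and amplifies it by PCR. Of 12 libraries, 6 came from control embryos, named blank control in the labels, and 6 from embryos injected with a short interfering RNA against CCNB2, the mRNA of the mitotic cyclin B2. Titles divide the control libraries into con-2c and con-4c and the injected ones into si-2c and si-4c, with 3 libraries in each group and embryos pooled within a library. The study asked how loss of CCNB2 alters the embryonic transcriptome over the early cleavages.

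All oocytes came from slaughterhouse ovaries of Long White gilts and the semen from Landrace boars. Whether the control embryos were injected was not clear, so a difference between si and control can include the injection itself. The stage in the title disagreed with the stage in the tissue label in 12 of 12 libraries, the title giving 2c where the tissue field gives 4-cell, and 4c where it gives 2-cell. The group names below stand for the titles alone, and reading the tissue labels in their place would reverse the sign of each difference between stages in both arms. No source states that the replicates were separate cultures, so p-values measure the spread between these libraries, which may be technical.

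The siRNAs that the study lists against CCNB2 are shown because they define the si groups. Each has 19 bases, written 5′ to 3′ as listed, and the list does not say which was used for these libraries:
First of the list: gcagguccacuccaaguuu
Second of the list: gcuuauaccaguucccaaa

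Library totals were between 27785233 and 39510908 counts. CCNB2 had 464 ± 21.7 CPM (counts scaled to a common library size, as described under the processing, mean ± SD, n = 3 here and below) in con-2c, 42.6 ± 3.65 CPM in si-4c, 475 ± 41.9 CPM in con-4c and 22.7 ± 5.58 CPM in si-2c, and no si library reached the level of any control. Summed levels of 9 oocyte and early embryo markers were between 19380 and 24510 CPM in con-2c and 22480 and 24660 in si-4c, but 9649 and 10510 in con-4c and 9927 and 11630 in si-2c. The study used EIF1A, DPPA2 and ZSCAN4 as markers of zygotic genome activation. Of these DPPA2 and EIF1AX, taken here for EIF1A, were read, and ZSCAN4 was not. The sum of DPPA2 and EIF1AX was between 65.6 and 72.8 CPM in con-2c and 73.7 and 89.2 in si-4c. It was between 327 and 366 in con-4c and 172 and 183 in si-2c. BTG4 alone made up most of the oocyte sum (18570 CPM in con-2c and 19670 in si-4c on average, against 7682 in con-4c and 7897 in si-2c). The mean was lower in both con-4c and si-2c than in both other groups for 7 of the 9 markers, but not for ZP2 and BMP15, and BMP15 was lowest in con-2c (887 CPM) and highest in si-2c (1228 CPM). By the oocyte sum con-2c stood beside si-4c and con-4c beside si-2c, although the titles pair them otherwise. By the sum of the activation markers con-2c stood beside si-4c, while si-2c lay between these groups and con-4c. The 7 cumulus and granulosa markers summed to at most 3.80 CPM in any library and AKAP4, a sperm marker, reached 1.16 CPM. The 5 blood and stroma markers summed to between 15.4 and 24.1 CPM, nearly all of it PECAM1, whose mean was 21.1 CPM in con-2c and 18.6 CPM in si-4c and was lower in both other groups. Among the other markers of those lists, PTPRC, COL1A1, COL3A1, TNFAIP6, PTX3, STAR and AKAP4 had higher means in both con-4c and si-2c than in both other groups. COL3A1 had 1.69 and 1.04 CPM there and 0 in con-2c and si-4c, but PTX3 had 0.0433 CPM in con-4c and 0.03 in si-4c. HAS2, FSHR, CYP11A1, CYP19A1 and HBB did not have this order. CYP19A1 was highest in con-2c (0.715 CPM) and lowest in con-4c (0.208 CPM). A pool of embryos does not tell fewer cells of a type from less RNA in each cell, and the part of any such shift in the values below was not tested.

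Between the control groups, 12 of the 65 genes (18.5%) were higher in con-4c than con-2c at an adjusted p below 0.05 and a change of at least 2-fold, which is the rule for a call in what follows. Over all genes tested 14.4% were called higher, so the share among the 65 was close to the background. No member was called lower (0%, against 3.25% of all genes) by edgeR or by DESeq2, although 15 members were lower at an unadjusted p below 0.05. The largest fitted rises among the 12 called were those of INTS6L, SUPT4H1, MED26, MED31, NELFE, MED8 and MED10, each over 6-fold. The median log2 fold change was 0.17 over the 65 genes and 0.11 over all genes.

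Beneath the rises lay a smaller movement the other way. Without the minimum fold, 18 members (27.7%) were higher and 14 (21.5%) lower at an adjusted p below 0.05, against 20.7% and 15.1% of all genes. The 14 were MED4, MED6, MED7, MED15, MED17, MED21, MED27, MED30, MNAT1, INTS2, INTS9, INTS14, SUPT16H and SUPT20H, and their log2 fold changes lay between -0.86 and -0.28. Scaling to library totals in place of TMM moved the median of all genes in this comparison from 0.11 to 0.38. It kept the sign of all 14 and left 5 of them, MED4, MED6, MED17, MED30 and MNAT1, below the adjusted p threshold. The falls are therefore relative to the scaling.

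In the libraries titled 2c, 8 members (12.3%) were called higher in si-2c than con-2c and 1 (1.54%) lower, against 10.7% and 1.8% of all genes. Library totals gave 11 higher and 0 lower there, since MED30 lost its call. At any fold, 16 were higher and 13 lower (24.6% and 20.0%, against 16.6% and 12.3% of all genes). Under library totals all 16 of the higher but 5 of the 13 lower still passed with the same sign. In the libraries titled 4c the direction was opposite, with 12 members (18.5%) called lower in si-4c than con-4c and 0 higher, against 15.8% and 3.12% of all genes. DESeq2 also called 0 members higher there, and 16 were higher at an unadjusted p below 0.05 in edgeR. At any fold, 13 were higher and 19 lower (20.0% and 29.2%, against 15.1% and 21.7% of all genes). Of these, 7 of the 13 higher and all 19 lower still passed with the same sign under library totals.

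Between the si groups, 1 member (1.54%) was higher and 9 (13.8%) lower in si-4c than si-2c, against 1.47% and 11.9% of all genes. The comparisons share groups with each other, so their counts are not independent of one another. At any fold, 16 were higher and 18 lower there (24.6% and 27.7%, against 12.1% and 16.9% of all genes). With library totals 5 of those 16 and all 18 lower still passed with the same sign, so the 16 are relative to the scaling. In all 4 comparisons the share of members called was near that of all genes under the 2-fold rule.

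**Figure D1:**
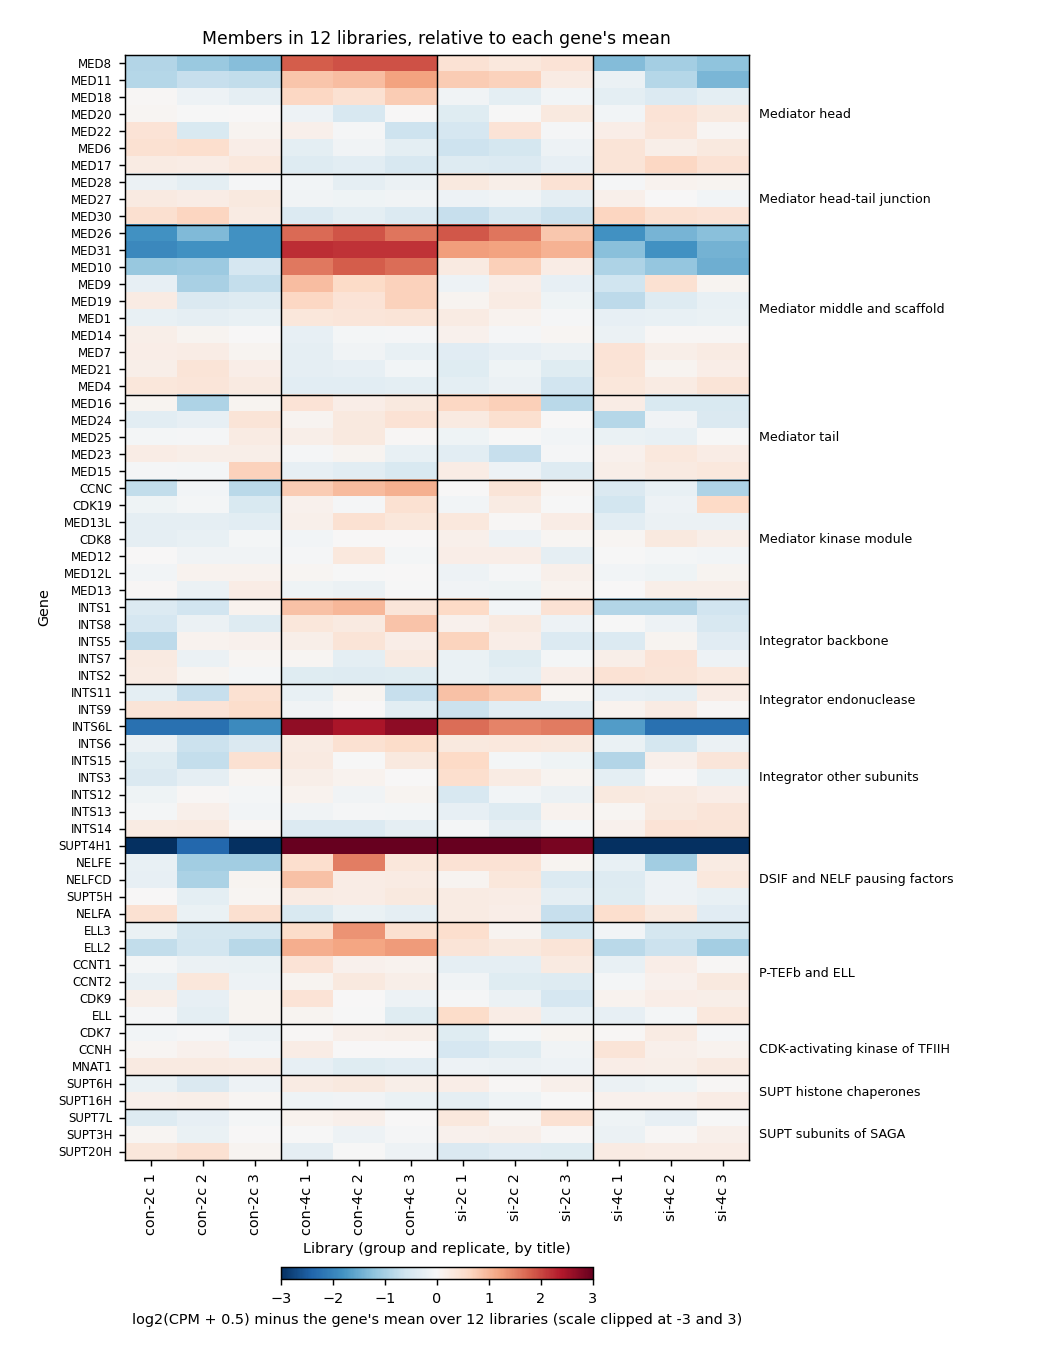
Each row is 1 of the 65 genes, ordered by role and, within a role, by the log2 fold change of con-4c against con-2c, and each column is 1 of the 12 libraries. Colour gives log2(CPM + 0.5) less the mean of that gene over the libraries, clipped at -3 and 3, and the strong rows (SUPT4H1, INTS6L, MED26, MED31, MED10 and MED8) are high in con-4c and si-2c and low in con-2c and si-4c.

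The head of Mediator, the module that contacts the polymerase and the general factors, held 7 of the genes. Of these MED8 and MED11 were called higher in con-4c than con-2c, against 14.4% of all genes. MED8 (chromosome 6, 167861349 to 167868560, RefSeq gene positions on the Sscrofa11.1 build here and below) had 3.98, 3.33 and 2.92 CPM in con-2c, 2.85, 3.59 and 3.11 CPM in si-4c, 28.9, 30.9 and 30.5 CPM in con-4c and 10.8, 9.83 and 10.47 CPM in si-2c. The 3 libraries of con-4c were above all others, si-2c came next without overlap, and con-2c and si-4c overlapped. MED8 was 8.83-fold higher in con-4c than con-2c (3.14 on the log2 scale, SE 0.15, edgeR adjusted p 7.09e-11) and higher in si-2c than con-2c (1.603, SE 0.15). In si-4c it fell below con-4c by 9.45-fold (-3.24, SE 0.15, adjusted p 4.77e-11 by edgeR).

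MED11 (chromosome 12, 52150535 to 52152366), a short head subunit, had 2.35, 2.73 and 2.61 CPM in con-2c, 4.08, 2.37 and 1.52 CPM in si-4c, 8.82, 9.45 and 11.6 CPM in con-4c and 8.38, 7.85 and 5.71 CPM in si-2c. Its con-4c and si-2c values lay above every con-2c and si-4c value, and con-4c was above si-2c by a narrow margin. The rise from con-2c to con-4c was 3.87-fold (1.95 on the log2 scale, SE 0.28, edgeR adjusted p 3.60e-05), and the log2 fold change of si-4c against con-4c was -1.90. MED18, which forms the movable jaw of the head with MED20, went from 7.54 ± 0.829 CPM in con-2c to 13.0 ± 1.42 CPM in con-4c, a change under 2-fold (0.78 on the log2 scale, SE 0.15, edgeR adjusted p 6.06e-04) that library totals took over the limit (1.06). MED18 was called lower in si-4c than con-4c (-1.01, SE 0.15), a call at the fold limit that fell just under it with no filter on low counts, or when replicate 1 or 3 (-0.93) of con-4c or replicate 2 of si-4c (-0.96) was omitted. MED6 and MED17, which form the core of the head, went the other way from MED8, and their values are given with the other falling genes. MED20 and MED22 passed no test in any comparison.

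In the middle module, which includes the scaffold subunit MED14 in this list, 4 of 10 genes were called higher in con-4c. Of all genes 14.4% were called higher there. MED31 (chromosome 12, 50728681 to 50734469), a small and strongly conserved subunit of the middle module, had 4.20, 4.64 and 4.67 CPM in con-2c, 7.14, 4.66 and 6.27 CPM in si-4c, 83.3, 81.0 and 81.2 CPM in con-4c and 42.5, 41.0 and 36.5 CPM in si-2c. The 6 libraries of con-4c and si-2c were all above the 6 others, and the con-4c libraries were all above those of si-2c. The rise from con-2c to con-4c was 18.1-fold (4.18 on the log2 scale, SE 0.14, edgeR adjusted p 6.17e-13), that from con-2c to si-2c had a log2 fold change of 3.15, and si-4c was lower than con-4c (-3.76, SE 0.14). The annotation of MED31 overlaps that of C12H17orf100 by 88 bases, and whether counting used the strand was not given in the sources used here.

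MED10 (chromosome 16, 75516992 to 75524761), another middle subunit, had 6.17, 6.39 and 9.93 CPM in con-2c, 7.20, 6.07 and 4.84 CPM in si-4c, 43.1, 50.9 and 46.3 CPM in con-4c and 17.1, 23.7 and 16.8 CPM in si-2c. The con-4c values were apart from all others, si-2c was intermediate, and con-2c and si-4c overlapped. MED10 was 6.24-fold higher in con-4c than con-2c (2.64 on the log2 scale, SE 0.20, edgeR adjusted p 1.52e-08). It was also called higher in si-2c than con-2c (1.35, SE 0.19) and lower in si-4c than con-4c (-2.95, SE 0.20).

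MED26 (chromosome 2, 60984233 to 61035661), the subunit known to bring elongation factors of the ELL and P-TEFb family to Mediator, was close to absent from con-2c and si-4c. It had 0, 0.208 and 0 CPM in con-2c, 0, 0.174 and 0.239 CPM in si-4c, 5.23, 6.03 and 4.84 CPM in con-4c and 5.92, 4.93 and 2.57 CPM in si-2c. These values rest on 7 reads in all of con-2c and 14 in all of si-4c, against 490 in con-4c and 547 in si-2c. The log2 fold change from con-2c to con-4c was 6.16 (SE 0.75, edgeR adjusted p 5.66e-06), that from con-2c to si-2c 5.90, and that from con-4c to si-4c -5.25. MED9, the partner of MED4 in the middle module, was called higher in con-4c than con-2c (1.82 ± 0.296 against 0.405 ± 0.237 CPM, 2.16 on the log2 scale, SE 0.54, edgeR adjusted p 0.00462). It was not called in either comparison of si with control under TMM, and library totals called it higher in si-2c than con-2c (1.44).

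MED1, the subunit by which nuclear receptors reach Mediator, had 238 ± 4.17 CPM in con-2c, 239 ± 4.40 CPM in si-4c, 361 ± 4.98 CPM in con-4c and 302 ± 29.8 CPM in si-2c, and its higher level in con-4c was under 2-fold (0.60 on the log2 scale, SE 0.08, edgeR adjusted p 8.19e-06). Its annotation overlaps that of CDK12. MED19, which links the middle to the polymerase, was called lower in si-4c than con-4c (11.67 ± 2.33 against 24.3 ± 2.49 CPM, -1.06, SE 0.19), while its difference between con-4c and con-2c was under 2-fold (0.77) and over it under library totals (1.05) and without con-2c replicate 1 (1.02). The MED19 call was lost without con-4c replicate 3 (-0.99) or si-4c replicate 1 (-0.91). MED14, on which head, middle and tail are assembled, passed the adjusted p threshold in none of the 6 comparisons of groups under TMM scaling. Its log2 fold change between con-4c and con-2c was -0.21 (95% interval -0.41 to -0.01).

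**Figure D2:**
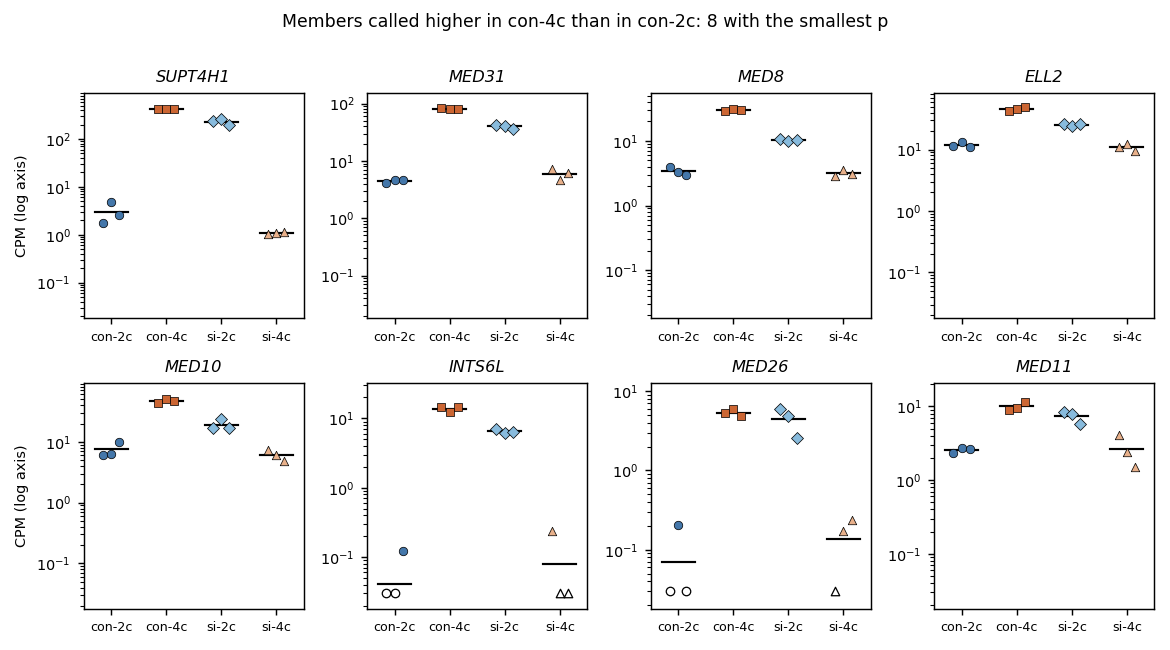
CPM on a log axis for the 8 genes with the smallest p among members called higher in con-4c than con-2c. Points are libraries, bars are group means (n = 3) and open symbols at the foot mark libraries with 0 counts, and for each gene the con-4c and si-2c points lie above those of con-2c and si-4c.

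The genes of the core that moved down were higher on average in both con-2c and si-4c than in con-4c and si-2c. MED4, also of the middle module, had 487, 489 and 459.8 CPM in con-2c, 486, 452 and 496 CPM in si-4c, 305, 307 and 311 CPM in con-4c and 312, 339.5 and 258 CPM in si-2c. The 6 libraries of con-2c and si-4c were all above the 6 others, by less than 2-fold (-0.64 on the log2 scale, SE 0.09, edgeR adjusted p 2.39e-05 for con-4c against con-2c, and 0.63, SE 0.09 for si-4c against con-4c). MED17, the central subunit of the head, had 159.5, 156 and 169 CPM in con-2c, 175, 207 and 182 CPM in si-4c, 103, 108 and 95.7 CPM in con-4c and 103, 102 and 113 CPM in si-2c, again with no overlap between con-2c or si-4c and the others, and with si-4c above con-2c in every library (-0.66 on the log2 scale, SE 0.08, edgeR adjusted p 9.10e-06). MED6 of the head changed by -0.62, MED21 of the middle by -0.46 and MED7 of the middle by -0.36 from con-2c to con-4c on the log2 scale, all with an edgeR adjusted p of at most 0.00232. Between si-4c and con-4c the same 5 genes had log2 fold changes of 0.63, 0.88, 0.51, 0.43 and 0.48. Under library totals MED7 and MED21 no longer passed in con-4c against con-2c, nor did MED6 and MED21 in si-4c against con-4c. The annotation of MED7 is overlapped by that of FAM71B over its whole length of 6501 bases.

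At the junction of head and tail, MED30 (chromosome 4, 21198740 to 21215634) was the sole member called lower in si-2c than con-2c and the sole one called higher in si-4c than si-2c. It had 24.3, 27.6 and 20.8 CPM in con-2c, 27.6, 23.9 and 23.1 CPM in si-4c, 13.0, 14.2 and 13.0 CPM in con-4c and 10.6, 12.4 and 10.99 CPM in si-2c. Values of con-2c and si-4c were all above those of con-4c and si-2c. The annotation of MED30 is overlapped by that of LOC110260233 over its whole length of 16895 bases. MED30 had a log2 fold change of -1.10 for si-2c against con-2c (edgeR adjusted p 5.41e-06, SE 0.13) and 1.14 for si-4c against si-2c, and library totals took both under 2-fold (-0.70 and 0.75). Leaving out con-2c replicate 2 also took the difference between si-2c and con-2c to just under 2-fold. MED27 was lower in con-4c than con-2c at under 2-fold (-0.37), and this no longer passed with library totals (-0.10). MED28 was higher in si-2c than con-2c at under 2-fold (0.47, SE 0.09), and its difference between con-4c and con-2c did not pass (-0.01, 95% interval -0.21 to 0.19).

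**Figure D3:**
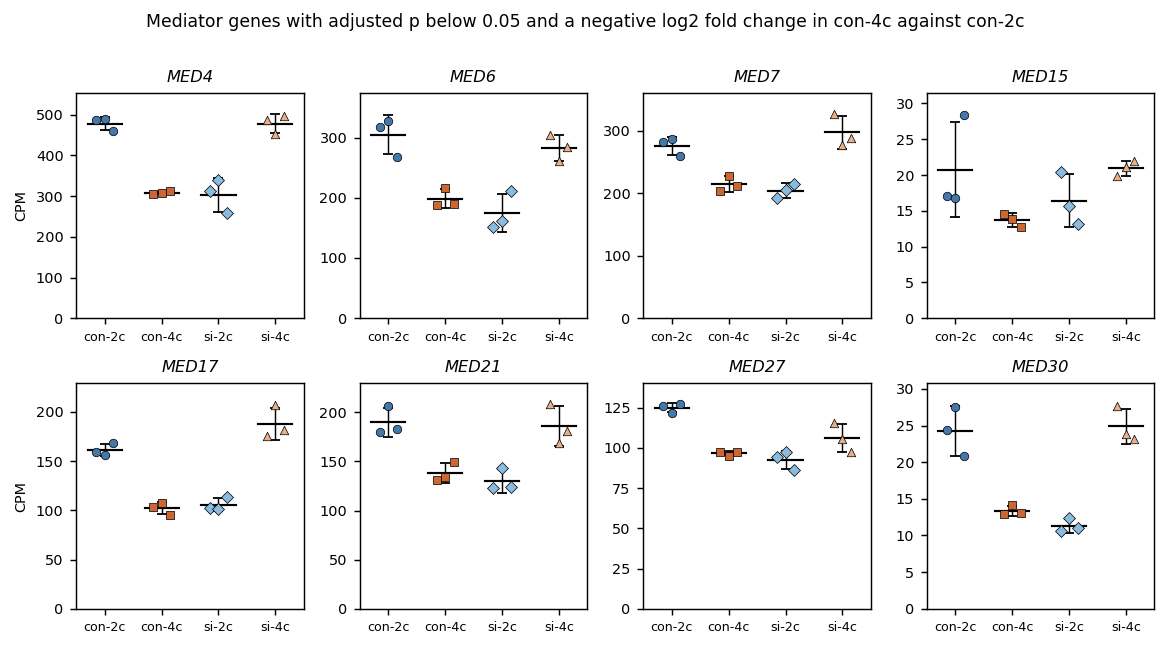
CPM of the 8 Mediator genes with an adjusted p below 0.05 and a lower level in con-4c than con-2c under TMM scaling. Points are libraries, horizontal bars are means and error bars are SD (n = 3), and in each panel the mean is lower in con-4c and si-2c than con-2c and si-4c.

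In the tail, where activators bind, 0 of 5 genes were called in any of the 6 comparisons of groups by edgeR or DESeq2 under their own scaling, and in con-4c against con-2c 1 of them was lower at an unadjusted p below 0.05 in edgeR. This was MED15, a target of many activators, whose change was under 2-fold (-0.60, SE 0.19) and whose con-2c values were 17.1, 16.8 and 28.4 CPM, the last of them apart from the others. MED16, MED24 and MED25 passed no test between con-4c and con-2c. MED24 was lower in si-4c than con-4c (-0.87, SE 0.32, edgeR adjusted p 0.0407) and si-2c (-0.86, SE 0.31, adjusted p 0.049 by edgeR) at under 2-fold, and both passed the fold limit with library totals (-1.12 and -1.23) and without si-4c replicate 2 (-1.13 and -1.13). MED23 had log2 fold changes of -0.25 between con-4c and con-2c and -0.51 between si-2c and con-2c, and only the second passed the adjusted p threshold.

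Among the 7 genes of the kinase module, only CCNC was called in any comparison of groups. Of all genes 14.4% were called higher in con-4c than con-2c and 15.8% lower in si-4c than con-4c. CCNC (chromosome 1, 66472622 to 66499754), which encodes cyclin C, the activating cyclin of CDK8 and CDK19, had 4.20, 6.80 and 3.94 CPM in con-2c, 5.28, 6.16 and 3.58 CPM in si-4c, 12.6, 14.6 and 15.7 CPM in con-4c and 7.41, 9.72 and 7.55 CPM in si-2c. All con-4c values were above all others, si-2c came next, and con-2c and si-4c overlapped. Cyclin C mRNA was 2.87-fold higher in con-4c than con-2c (1.52 on the log2 scale, SE 0.23, edgeR adjusted p 5.91e-05), and the log2 fold change of si-4c against con-4c was -1.52. Between si-2c and con-2c the change was under 2-fold (0.72), though library totals took it to 1.12 and over the limit.

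Neither of its kinases passed a test in any comparison under TMM scaling. Under library totals CDK8 passed at under 2-fold in con-4c against con-2c (0.44, edgeR adjusted p 0.0241) and si-2c against con-2c (0.61, edgeR adjusted p 0.0029). CDK8 had 15.8, 16.2 and 18.3 CPM in con-2c, 19.8, 23.5 and 21.6 CPM in si-4c, 17.9, 19.3 and 19.4 CPM in con-4c and 21.4, 17.2 and 19.8 CPM in si-2c, with a log2 fold change from con-2c to con-4c of 0.17 (95% interval -0.10 to 0.45). Libraries of CDK8 overlapped between con-2c and con-4c, while the si-4c values were all above those of con-4c. CDK19, the paralog of CDK8, had 0.732, 0.802 and 0.492 CPM in con-2c, 0.42, 0.723 and 1.55 CPM in si-4c, 0.987, 0.829 and 1.37 CPM in con-4c and 0.78, 1.10 and 0.837 CPM in si-2c, values near 1 CPM that allow a wide range of change (0.65, 95% interval -0.54 to 1.84). Its con-4c libraries were above those of con-2c and the si-4c libraries spanned both.

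MED12, which activates the kinase by docking cyclin C, had 3.85, 3.57 and 3.54 CPM in con-2c, 3.78, 3.70 and 3.58 CPM in si-4c, 3.75, 4.87 and 3.71 CPM in con-4c and 4.51, 4.53 and 3.09 CPM in si-2c. Its paralog MED12L had 44.0, 50.8 and 50.1 CPM in con-2c, 44.3, 42.5 and 49.2 CPM in si-4c, 48.6, 46.8 and 47.4 CPM in con-4c and 42.0, 45.6 and 51.8 CPM in si-2c. Neither passed a test in any comparison under TMM scaling. MED12L passed at under 2-fold with library totals in si-2c against con-2c (0.34, edgeR adjusted p 0.0312). With that scaling si-4c was also lower than con-4c (-0.33, edgeR adjusted p 0.0374) and si-2c (-0.42, edgeR adjusted p 0.0105). The 95% interval for con-4c against con-2c was -0.33 to 0.68 for MED12 and -0.25 to 0.21 for MED12L. MED13, the link between the kinase module and the core, had 71.9, 62.0 and 80.9 CPM in con-2c, 70.3, 79.0 and 78.9 CPM in si-4c, 63.3, 61.2 and 68.6 CPM in con-4c and 65.0, 63.3 and 74.7 CPM in si-2c and passed no test. Its paralog MED13L had 30.0, 29.7 and 29.1 CPM in con-2c, 28.6, 31.8 and 32.1 CPM in si-4c, 40.2, 49.3 and 45.9 CPM in con-4c and 45.1, 36.7 and 42.3 CPM in si-2c. It was higher in con-4c than con-2c, with no overlap of libraries, at under 2-fold (0.61 on the log2 scale, SE 0.10, edgeR adjusted p 1.80e-04). The fitted changes of this pair were -0.15 and 0.61 from con-2c to con-4c, and the difference between the paralogs was not tested.

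The kinase of TFIIH, which starts the phosphorylation of the polymerase tail, showed no call. CDK7 passed at under 2-fold with library totals in con-4c against con-2c (0.49, edgeR adjusted p 0.0037). It did so too in si-2c against con-2c (0.39, edgeR adjusted p 0.016). CDK7 had 42.5, 43.8 and 39.4 CPM in con-2c, 45.4, 53.2 and 43.4 CPM in si-4c, 45.7, 49.4 and 50.8 CPM in con-4c and 34.8, 42.8 and 47.1 CPM in si-2c, and CCNH, its cyclin, had 14.6, 15.3 and 13.3 CPM in con-2c, 18.5, 15.6 and 15.1 CPM in si-4c, 16.3, 14.1 and 14.1 CPM in con-4c and 9.74, 10.7 and 12.9 CPM in si-2c. The log2 fold change between con-4c and con-2c was 0.22 for CDK7 (95% interval -0.04 to 0.48) and 0.05 for CCNH (95% interval -0.27 to 0.37), with con-4c above con-2c in every library for CDK7 and overlap for CCNH. MNAT1, the assembly factor of this kinase, had 185, 187 and 184 CPM in con-2c, 178, 175 and 186 CPM in si-4c, 130.4, 121 and 123 CPM in con-4c and 138, 136 and 139 CPM in si-2c. The con-2c and si-4c values of MNAT1 were all above the others (-0.57 on the log2 scale, SE 0.07, edgeR adjusted p 4.06e-06 for con-4c against con-2c and 0.52, SE 0.07 for si-4c against con-4c), under 2-fold in both.

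**Figure D4:**
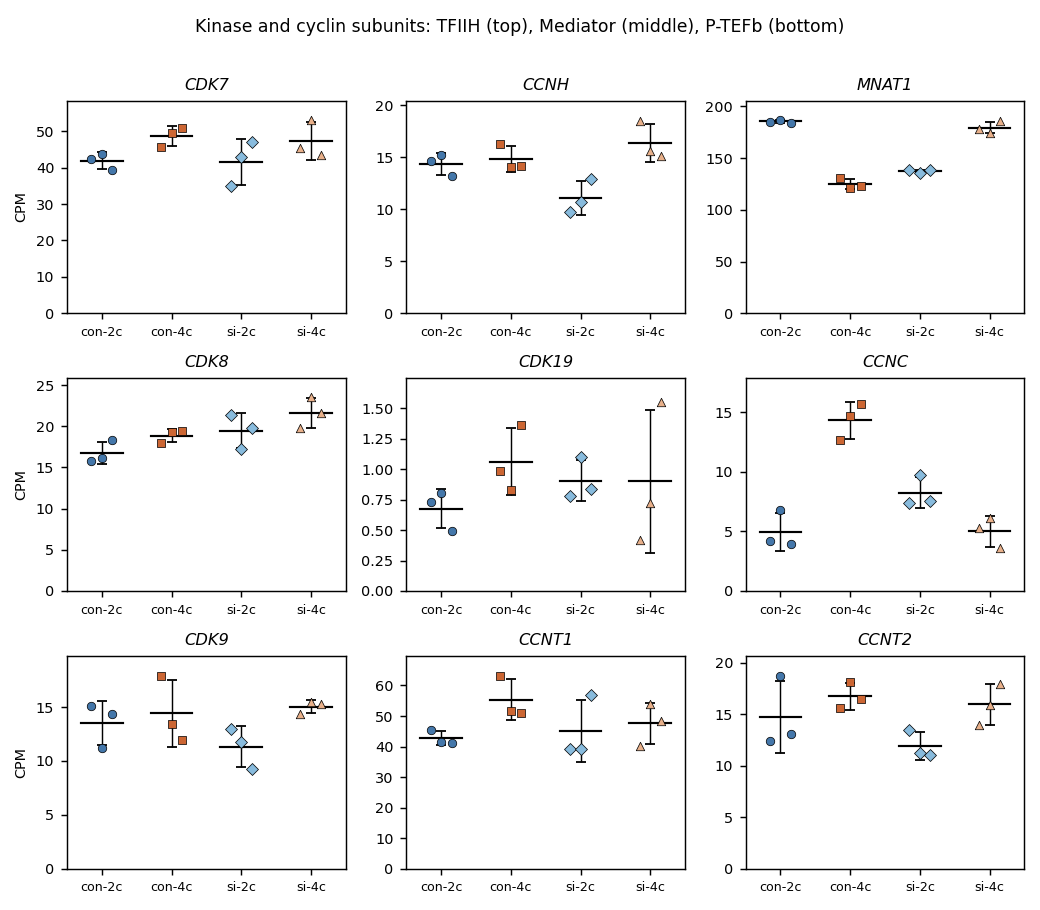
CPM of the kinases, their cyclins and MNAT1, by complex. Points are libraries, horizontal bars are means and error bars are SD (n = 3), and of the 9 genes CCNC in the middle row is the one whose con-4c libraries were called higher than con-2c.

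Of the pausing factors, SUPT4H1 (chromosome 12, 34622775 to 34629681) had the smallest p of all 65 genes in con-4c against con-2c. It encodes the small subunit of DSIF, the factor that clamps the polymerase with SUPT5H. SUPT4H1 had 1.75, 4.72 and 2.55 CPM in con-2c, 1.02, 1.10 and 1.16 CPM in si-4c, 420.5, 427 and 418 CPM in con-4c and 235, 265 and 191 CPM in si-2c. The 6 libraries of con-4c and si-2c lay between 191 and 427 CPM and the 6 others between 1.02 and 4.72 CPM. The level was 139-fold higher in con-4c than con-2c (7.12 on the log2 scale, SE 0.23, edgeR adjusted p 4.73e-13), and the log2 fold change was 6.25 in si-2c against con-2c and -8.59 in si-4c against con-4c.

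Its partner SUPT5H, the large subunit of DSIF, had 41.2, 33.2 and 42.1 CPM in con-2c, 31.6, 36.8 and 34.8 CPM in si-4c, 48.1, 47.9 and 50.1 CPM in con-4c and 48.1, 47.7 and 33.7 CPM in si-2c. The difference between con-4c and con-2c was 0.33 on the log2 scale (95% interval 0.03 to 0.62, edgeR adjusted p 0.0594), which did not pass, and si-4c was lower than con-4c at under 2-fold (-0.50, SE 0.13). Under library totals the difference of SUPT5H between con-4c and con-2c passed at under 2-fold (0.59). The subunits of DSIF thus had fitted changes of 7.12 and 0.33 between the same libraries, and the difference between the genes was not tested.

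NELF was represented by 3 genes at low counts. NELFE, its RNA-binding subunit, had 0.382, 0 and 0 CPM in con-2c, 0.39, 0 and 0.717 CPM in si-4c, 0.954, 2.49 and 0.813 CPM in con-4c and 0.901, 0.884 and 0.601 CPM in si-2c and was called higher in con-4c than con-2c (3.46 on the log2 scale, SE 1.202, edgeR adjusted p 0.0333), a call lost when con-2c replicate 2 (log2 fold change 2.87), con-2c replicate 3 (2.86), con-4c replicate 2 (2.77) or si-2c replicate 2 (3.45) was left out. In con-2c and con-4c, NELFA had 3.80 ± 1.05 and 2.39 ± 0.26 CPM and NELFCD 0.28 ± 0.263 and 0.855 ± 0.372 CPM, and neither passed a test in any comparison.

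P-TEFb, which ends the pause, did not pass a test in any of its 3 genes under TMM scaling. Under library totals CCNT1 passed at under 2-fold from con-2c to con-4c (0.65, edgeR adjusted p 0.0047). CCNT2 did so too (0.46, edgeR adjusted p 0.0384). With that scaling CCNT1 also differed between si and control, by 0.48 in libraries titled 2c and -0.47 in those titled 4c. Its interaction passed there as well (-0.96), while CDK9 passed no test under either scaling. CDK9 had 15.1, 11.2 and 14.3 CPM in con-2c, 14.4, 15.5 and 15.3 CPM in si-4c, 17.8, 13.5 and 11.9 CPM in con-4c and 13.0, 11.8 and 9.23 CPM in si-2c. CCNT1, which encodes cyclin T1, had 45.4, 41.6 and 41.2 CPM in con-2c, 40.3, 54.0 and 48.4 CPM in si-4c, 63.1, 51.7 and 51.1 CPM in con-4c and 39.2, 39.2 and 57.0 CPM in si-2c, and CCNT2 had 12.4, 18.7 and 13.1 CPM in con-2c, 14.0, 15.9 and 18.0 CPM in si-4c, 15.6, 18.1 and 16.5 CPM in con-4c and 13.5, 11.2 and 11.01 CPM in si-2c. Values of con-2c and con-4c overlapped for CDK9 and CCNT2, and for CCNT1 the con-4c libraries were above those of con-2c. The log2 fold change between con-4c and con-2c was 0.09 for CDK9 (95% interval -0.30 to 0.49), 0.37 for CCNT1 (0.04 to 0.70) and 0.18 for CCNT2 (-0.19 to 0.56).

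The ELL family, elongation factors that keep the polymerase from stalling, differed among its members. ELL2 (chromosome 2, 102518605 to 102591416) had 11.6, 13.2 and 10.8 CPM in con-2c, 11.097, 12.4 and 9.41 CPM in si-4c, 42.4, 45.2 and 48.3 CPM in con-4c and 26.1, 24.5 and 25.7 CPM in si-2c. All con-4c values were above all si-2c values, and both were above the overlapping con-2c and si-4c values. ELL2 was 3.81-fold higher in con-4c than con-2c (1.93 on the log2 scale, SE 0.12, edgeR adjusted p 1.97e-09), higher in si-2c than con-2c (1.10, SE 0.12) and lower in si-4c than con-4c (-2.05, SE 0.12).

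ELL had 11.998, 9.98 and 12.9 CPM in con-2c, 10.3, 11.8 and 15.3 CPM in si-4c, 12.9, 12.2 and 9.43 CPM in con-4c and 18.2, 14.3 and 10.4 CPM in si-2c, which overlapped between all groups, and its log2 fold change between con-4c and con-2c was -0.01 (95% interval -0.49 to 0.46). ELL3 was near the limit of detection, with 0.127, 0 and 0 CPM in con-2c, 0.18, 0 and 0 CPM in si-4c, 0.56, 1.36 and 0.52 CPM in con-4c and 0.536, 0.268 and 0 CPM in si-2c. Its 3 con-4c libraries were above its con-2c libraries, but the test did not pass (4.17 on the log2 scale, SE 1.73, edgeR adjusted p 0.0714). DESeq2 called ELL3 higher in con-4c (4.30).

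Integrator gave 2 calls among 14 genes in con-4c against con-2c, both higher, where 14.4% of all genes were called higher. DESeq2 added INTS1 (2.03). INTS6L (chromosome X, 111011860 to 111072939), a paralog of INTS6 that can take its place in the complex, went from counts of 0, 0 and 4 in con-2c to 437, 372 and 452 in con-4c. In CPM it had 0, 0 and 0.123 CPM in con-2c, 0.24, 0 and 0 CPM in si-4c, 14.4, 12.3 and 14.7 CPM in con-4c and 7.04, 6.11 and 6.44 CPM in si-2c. Libraries of con-4c were all above those of si-2c, which were all above the rest. The log2 fold change was 8.27 from con-2c to con-4c (SE 0.64, edgeR adjusted p 2.43e-08), 7.19 from con-2c to si-2c and -7.38 from con-4c to si-4c.

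INTS6, which helps bring the phosphatase PP2A to Integrator, had 9.83, 6.92 and 8.15 CPM in con-2c, 9.66, 7.61 and 9.83 CPM in si-4c, 13.2, 15.5 and 16.5 CPM in con-4c and 13.9, 14.1 and 13.8 CPM in si-2c. The con-4c and si-2c values were above all con-2c and si-4c values, and the rise from con-2c to con-4c was under 2-fold (0.86 on the log2 scale, SE 0.16, edgeR adjusted p 3.58e-04), though over it under library totals (1.13). Between si-4c and con-4c its log2 fold change was -0.74. Both paralogs were higher in con-4c and si-2c than con-2c and si-4c, and the difference in size between them was not tested.

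INTS8, a backbone subunit that also holds PP2A, was called higher in con-4c than con-2c (3.09 ± 0.845 against 1.47 ± 0.23 CPM, 1.07 on the log2 scale, SE 0.31, edgeR adjusted p 0.0114), and leaving out con-2c replicate 1 (0.97) or con-4c replicate 3 (0.82) took it under 2-fold. Its annotation overlaps that of CCNE2. INTS1, the largest backbone subunit, was called lower in si-4c than con-4c and in si-2c (-4.63, SE 1.07 and -3.98, SE 1.05), with 0, 0 and 0.119 CPM in si-4c, 1.18, 1.33 and 0.683 CPM in con-4c and 0.901, 0.375 and 0.751 CPM in si-2c. These rest on 4 reads in all of si-4c.

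The endonuclease of Integrator is formed by INTS11 with INTS9 and INTS4. INTS9 had 43.3 ± 2.33 CPM in con-2c, 34.7 ± 2.55 CPM in si-4c, 29.0 ± 3.496 CPM in con-4c and 23.5 ± 3.09 CPM in si-2c and was lower in con-4c and in si-2c than con-2c at under 2-fold (-0.58 and -0.88). INTS11, the catalytic subunit, stayed under 1 CPM in 12 of 12 libraries and passed no test. INTS2 of the backbone and INTS14 of the accessory module were lower in con-4c than con-2c at under 2-fold (-0.47 and -0.57). With library totals INTS2 (-0.19), INTS9 (-0.31) and INTS14 (-0.29) no longer passed in con-4c against con-2c. INTS3, INTS5, INTS7, INTS12, INTS13 and INTS15 passed no test there under TMM, with log2 fold changes between -0.07 and 0.89. Under library totals INTS3 (0.57) and INTS12 (0.36) passed there at under 2-fold.

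Of the histone chaperones that travel with the polymerase, SUPT6H had 23.7 ± 2.32 CPM in con-2c, 26.7 ± 2.09 CPM in si-4c, 33.6 ± 1.33 CPM in con-4c and 31.1 ± 1.66 CPM in si-2c and was higher in con-4c than con-2c at under 2-fold (0.51, SE 0.10). SUPT16H, a subunit of FACT, had 217 ± 9.71 CPM in con-2c, 223 ± 8.76 CPM in si-4c, 178 ± 5.84 CPM in con-4c and 180.4 ± 15.5 CPM in si-2c and was lower at under 2-fold (-0.28, SE 0.08), a change that library totals reduced to -0.01. SUPT20H, of the coactivator complex SAGA, had 1059, 1135 and 884 CPM in con-2c, 978, 971 and 964 CPM in si-4c, 689, 818 and 752 CPM in con-4c and 612, 656 and 647 CPM in si-2c, with con-2c and si-4c above con-4c and si-2c in every library (-0.45 on the log2 scale, SE 0.09, edgeR adjusted p 8.34e-04 for con-4c against con-2c). That fall of SUPT20H no longer passed with library totals (-0.17). SUPT3H and SUPT7L of SAGA passed no test between con-4c and con-2c under TMM, and SUPT7L passed at under 2-fold under library totals (0.60).

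Summed over the 32 Mediator genes, the level was 2458 ± 35.1 CPM in con-2c, 2484 ± 39.7 CPM in si-4c, 2250.0 ± 40.0 CPM in con-4c and 2122 ± 8.14 CPM in si-2c. The 14 Integrator genes summed to 268.5 ± 6.27, 295 ± 15.6, 250.0 ± 1.82 and 243 ± 20.4 CPM in the same order, and the 19 others to 1696 ± 136, 1655 ± 17.8, 1822 ± 61.9 and 1482 ± 43.0 CPM. These sums were not tested, and genes with many reads set most of them. For Mediator the sum under TMM was lower in con-4c than con-2c in every library, although 7 of the 32 genes were called higher there and 0 lower. This order depends on the scaling, as the TMM factors were 0.852 to 0.962 in con-2c and 1.06 to 1.09 in con-4c. Without these factors the con-4c sums were above the con-2c sums in every library.

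Whether the change with title stage differed between the arms was then asked. The fitted interaction, which is the change from si-2c to si-4c less the change from con-2c to con-4c, was called for 25 members, 7 (10.8%) with a positive and 18 (27.7%) with a negative value, against 9.87% and 22.5% of all genes. Library totals gave 1 positive and 25 negative members, MED30 being the positive call that remained (1.33). At any fold, 17 members were positive and 24 negative (26.2% and 36.9%, against 18.2% and 27.3% of all genes). With library totals 8 of the 17 positive and all 24 negative still passed with the same sign. The most negative values were those of SUPT4H1 (-14.83, SE 0.34), INTS6L (-14.58, SE 0.87) and MED26 (-11.15, SE 1.02). The most positive was that of MED30 (1.99, SE 0.18), followed by MED17 (1.49, SE 0.12).

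**Figure D5:**
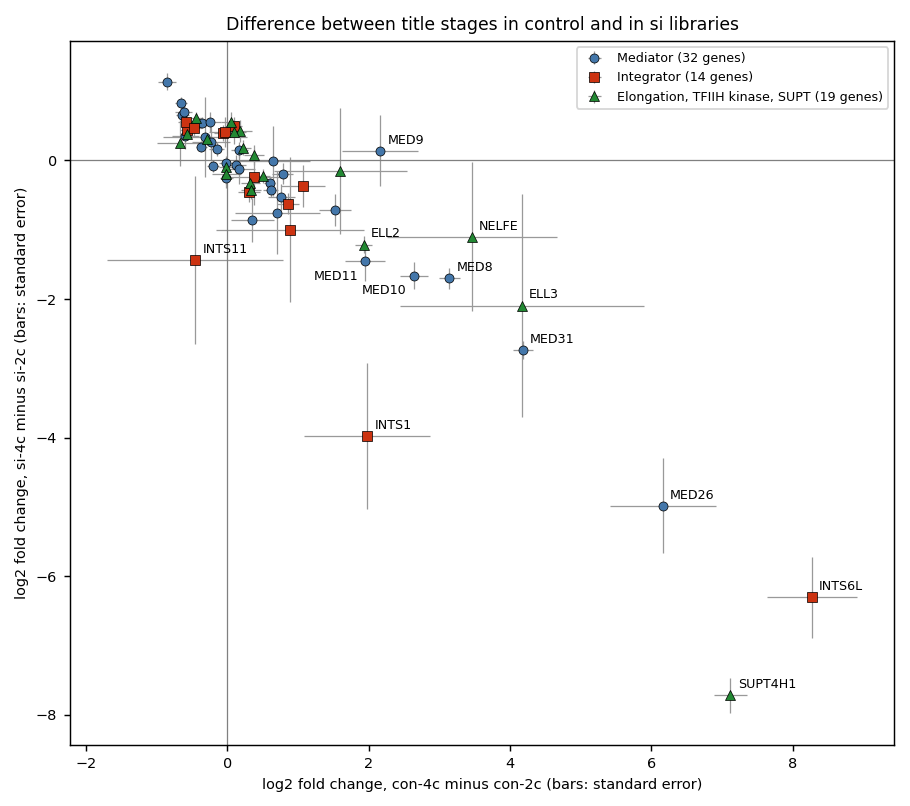
Log2 fold change of con-4c against con-2c (horizontal) and of si-4c against si-2c (vertical) for the 65 genes, with standard errors as bars. The groups on the axes share no library, and SUPT4H1, INTS6L, MED26 and MED31 lie at the lower right, higher in con-4c than con-2c and lower in si-4c than si-2c.

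Comparisons across both title stage and arm gave few calls. In si-4c against con-2c, 0 members were called higher by edgeR or DESeq2 (7 at an unadjusted p below 0.05) and 1 (1.54%) lower, against 0.0333% and 0.3% of all genes. That gene was SUPT4H1, whose counts were 55, 159 and 83 in con-2c and 34, 38 and 39 in si-4c (-1.46 on the log2 scale, SE 0.29, edgeR adjusted p 0.0287), and the call was lost without con-2c replicate 2 (log2 fold change -0.98), con-4c replicate 2 (-1.46), or si-4c replicate 1 (-1.42), 2 (-1.47) or 3 (-1.51). In si-2c against con-4c, 0 members were called higher by either tool (3 at an unadjusted p below 0.05) and 3 (4.62%) lower, against 0.161% and 1.63% of all genes. These were MED8 (-1.54 on the log2 scale, SE 0.14, edgeR adjusted p 3.92e-06), MED10 (-1.29, SE 0.18) and MED31 (-1.03, SE 0.12), and MED31 came under 2-fold with library totals (-0.91) and without si-2c replicate 3 (-0.97). At any fold, 1 was higher and 8 lower (1.54% and 12.3%, against 2.22% and 5.32% of all genes). For each of the 3 called genes si-2c lay between con-2c and con-4c. ELL2 and SUPT4H1 were also lower in si-2c than con-4c, at under 2-fold (-0.83 and -0.87).

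Elongation genes that the names did not select were read from a separate list, of which 32 of 36 genes were in the table. Of these, 6 were called higher in con-4c than con-2c and 1 lower, where the background over all genes was 14.4% and 3.25%. Those higher were CDK12, a kinase of the polymerase tail (1.05), CDC73 (1.64), PAF1 (1.35) and RTF1 (3.20) of the PAF complex, ELOB of elongin (2.00) and HEXIM1, which holds P-TEFb inactive (3.32). RTF1 had 22.9, 23.4 and 23.6 CPM in con-2c, 27.8, 20.8 and 21.8 CPM in si-4c, 210.1, 205 and 226 CPM in con-4c and 141, 141 and 102 CPM in si-2c, with con-4c and si-2c apart from the rest. The gene called lower was EAF2, a partner of ELL, which had 71.1, 65.4 and 54.9 CPM in con-2c, 78.1, 66.1 and 65.5 CPM in si-4c, 17.9, 21.9 and 19.7 CPM in con-4c and 20.4, 21.8 and 27.0 CPM in si-2c (-1.69 on the log2 scale, SE 0.13, edgeR adjusted p 2.49e-08). EAF2 was lower in si-2c than con-2c (-1.47) and higher in si-4c than con-4c (1.82).

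In si-2c against con-2c, 3 genes of that list were called higher (CDC73, RTF1 and HEXIM1) and 1 lower (EAF2), against 10.7% and 1.8% of all genes. In si-4c against con-4c, 1 was called higher (EAF2) and 6 lower, which were the 6 named above as higher in con-4c, against 3.12% and 15.8% of all genes. Between si-4c and con-2c edgeR called 0 of the 32 in either direction, with 5 higher and 2 lower at an unadjusted p below 0.05.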

How the data were processed

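SMART-seq libraries of 12 pools of porcine embryos were measured, 3 in each of 4 groups taken from the library titles. The authors deposited unnormalized read counts, in whole numbers, by Ensembl gene. Their processing notes name the Sscrofa11.1 build, cutadapt 1.9, HISAT2 2.2.1, StringTie 2.1.6, DESeq2 and edgeR, and the study's methods give DESeq2 as its test for differential expression. Strand use, annotation release and how multiply matching reads were counted are not given in the sources used here, so values of paralogs and of the 25 members whose RefSeq annotation overlaps another gene can hold reads of a neighbour. Amplified reads carried no molecular identifiers, so replicate libraries and not counts set the precision.

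The deposited counts were fitted with edgeR 4.0.16 under R 4.3.3 (filterByExpr, TMM factors from 0.852 to 1.21, quasi-likelihood fit of 4 group means to all 12 libraries, 8 residual degrees of freedom, biological coefficient of variation 27.3%). Benjamini-Hochberg adjustment ran over 17995 genes, and a call needed, as in the study, an adjusted p below 0.05 with a change of 1 or more in size on the log2 scale. CPM were computed here from the deposited counts and the TMM-scaled totals. Where no scaling is named, an edgeR test is that of the TMM fit. SE is the log2 fold change over the square root of F, and 95% intervals use the t distribution with 8 degrees of freedom. The fit was run on simulated data with known changes in con-4c alone, as many up as down, which cannot test the choice of scaling. Replicate numbers did not pair the libraries, as the closing section describes.

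Values of every library are given for the 8 members that rose most clearly from con-2c to con-4c (smallest p among calls) and a mean of at least 1 CPM in con-4c, for kinases, cyclins and paralogs whatever their values, and for members called across stage and arm, and other members by role. The members and the lists were chosen with earlier results of these data known. The alternatives were scaling by RLE or by library totals, no filter, DESeq2 1.42.0, a replicate block, no minimum fold, and leaving out each library. Of the 65 members 64 matched a RefSeq position by symbol. Sequences other than the siRNAs were not used here.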

Additional observations from a re-analysis of the deposited data

Results flagged for a closer look

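For 25 of the 65 members the difference between the title stages was not the same in the si and the control libraries, by the edgeR test of the interaction (the log2 fold change of si-4c against si-2c less that of con-4c against con-2c, adjusted over all genes). Negative values, where the fitted change from si-2c to si-4c was below that from con-2c to con-4c, were found for 18 members, of which MED24, INTS1 and ELL3 did not pass the test between con-4c and con-2c. Among the factors of elongation they were -14.83 for SUPT4H1, -4.56 for NELFE, -3.14 for ELL2 and -6.26 for ELL3. Among Mediator genes they were -6.91 for MED31, -4.84 for MED8, -4.31 for MED10, -11.15 for MED26, -3.41 for MED11, -2.24 for CCNC, -2.02 for MED9, -1.30 for MED19, -1.22 for MED24 and -1.03 for MED13L. Among Integrator genes they were -14.58 for INTS6L, -5.96 for INTS1, -1.49 for INTS6 and -1.44 for INTS8. Over the 17 alternatives that keep the minimum fold, the call held in 8 for ELL3, 8 for MED9, 9 for MED24, 13 for NELFE and 14 for MED13L, and in all 17 for the 13 others with a negative value.

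Positive values were found for 7 members: 1.99 for MED30, 1.49 for MED17, 1.32 for MED6, 1.29 for MED4, 1.14 for INTS9, 1.05 for SUPT20H and 1.01 for INTS14. Scaling to library totals left MED30 alone of these 7 above the 2-fold limit, and the call of INTS14 held in 7 of the 17 alternatives, that of SUPT20H in 13, those of INTS9, MED17, MED6 and MED4 in 16 and that of MED30 in all. In all 25 cases the title stages and the tissue labels of the libraries disagree, and an exchange of the stage in both arms would reverse the sign of the interaction but not its size. An exchange in 1 arm alone would change its size too, and was not tested. Over all genes tested the mean correlation of log2 CPM was 0.963 between con-2c and si-4c and 0.949 between con-4c and si-2c. It was 0.922 between con-2c and si-2c and 0.889 between con-4c and si-4c.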

How the results depend on the processing

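Of 72 calls of members over the 7 comparisons, 53 held in all 17 alternatives that keep the minimum fold (10 of 12 in con-4c against con-2c, 8 of 9 in si-2c against con-2c, 10 of 12 in si-4c against con-4c, 9 of 10 in si-4c against si-2c, 0 of 1 in si-4c against con-2c, 2 of 3 in si-2c against con-4c and 14 of 25 in the interaction). Without a minimum fold the members passing were 14 lower for con-4c against con-2c, 16 higher and 13 lower for si-2c against con-2c, 13 higher and 19 lower for si-4c against con-4c, 16 higher and 18 lower for si-4c against si-2c, 1 higher and 8 lower for si-2c against con-4c, and 17 positive in the interaction.

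Library totals moved the median log2 fold change of all genes from 0.11 to 0.38 for con-4c against con-2c, from 0.12 to 0.52 for si-2c against con-2c, from -0.11 to -0.37 for si-4c against con-4c and from -0.13 to -0.51 for si-4c against si-2c. With them 0 members were lower in si-2c against con-2c, 0 higher in si-4c against si-2c and 1 positive in the interaction. The sign turned with library totals for INTS14 (0.0845), MED12L (0.34), MED14 (0.36), CDK7 (0.39) and SUPT16H (0.13) in si-2c against con-2c, for MED28 (-0.0245) in si-4c against con-4c, for SUPT16H (-0.0755) in si-4c against si-2c, and for MED27 (-0.086), MED14 (-0.53), CCNH (-0.15), SUPT16H (-0.0681) and INTS13 (-0.19) in the interaction.

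Leaving out 1 library at a time gave 11 to 13 members higher and 0 lower in con-4c against con-2c, 8 to 9 higher and 0 to 1 lower in si-2c against con-2c, 0 higher and 10 to 13 lower in si-4c against con-4c, 1 higher and 9 to 10 lower in si-4c against si-2c, 0 higher and 0 to 1 lower in si-4c against con-2c, 0 higher and 2 to 4 lower in si-2c against con-4c, and 6 to 9 positive and 14 to 19 negative in the interaction. Same-numbered libraries of different groups had correlations of their deviations from the group means between -0.05 and 0.029, so the numbers were not read as pairs. The replicate block gave 13 members higher in con-4c against con-2c, ELL3 being added (log2 fold change 5.71), and 13 lower in si-4c against con-4c. Levels under about 1 CPM (NELFE, ELL3, INTS1, INTS5, INTS11, NELFCD, MED22 and CDK19) rest on few reads, and the depth limits what can be said of them.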
